A study of Mus musculus with 92 samples.

Results

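NTC ER-Hoxb8 macrophages differentiated with 0.4 uM baricitinib were compared with NTC macrophages at 0 uM. The members were chosen by guide and dose in the sample titles: 4 libraries at 0.4 uM and 3 at 0 uM, which are 7 of the 92 libraries of the series. The series profiled mouse myeloid cells in culture and microglia-like cells from brain by bulk RNA sequencing, with and without CRISPR editing of Adar. ER-Hoxb8 cells are mouse bone marrow progenitors held immature by an estrogen-dependent Hoxb8 fusion protein, and they differentiate when estradiol is withdrawn. Here NTC (non-targeting guide) and Adar KO sgRNA #1 cells were given baricitinib, an inhibitor of JAK1 and JAK2, at 5 doses in 33 libraries, and the comparison asks what the drug changes in cells whose Adar gene was not targeted.

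All 7 libraries come from Cas9 het cells with the FVB background, the Hoxb8 transgene and the NTC guide, differentiated for 7 days in M-CSF, with the drug renewed at each change of medium. They differ in the labelled dose, and whether the 0 uM wells received vehicle is not given in the sources used here. The NTC cells were a transduced and sorted culture from conditionally immortalized progenitors, so the replicates are wells of 1 line, and p-values measure the spread between wells rather than between animals. The other NTC libraries were 3 at 0.0006 uM, 4 at 0.016 uM and 3 at 10 uM by their titles. The treatment notes give 0.00064 uM and 0.16 uM in place of the lower doses, so the size of those steps is uncertain, while 0.4 uM and 10 uM are the same in both.

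Levels are log2 CPM (counts per 1e6 reads) as deposited, a scale on which a difference of 1 is a doubling and a gene listed without reads stands at -2.78. Effective depth was 10.6, 15.1 and 16.3 M reads (M, 1e6) in 0 uM replicates 1 to 3, and 14.5, 11.3, 14.2 and 12.7 M in 0.4 uM replicates 1 to 4. A level of 3 reads, used as the floor, lay between -1.60 and -1.22 in these libraries, and floors cover counting error only. All 13 macrophage markers, among them Csf1r, Adgre1 (listed as Emr1), Cx3cr1, Trem2 and Cd68, were above 1 CPM in all 7 libraries. They summed to 14100, 15200 and 15000 CPM at 0 uM and to 14700, 14200, 14700 and 15500 CPM at 0.4 uM, with Cd14 contributing most CPM (not corrected for gene length).

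As background, many cytokine receptors have no kinase of their own and signal through Janus kinases, which phosphorylate STAT proteins. Type I interferon acts through STAT2 and IRF9 at the interferon-stimulated response element of interferon-stimulated genes (ISGs), interferon gamma acts at the gamma-activated sequence, and interleukins 4 and 13 act through STAT6. Resting macrophages keep a low level of ISG transcription, and proteins such as USP18 and the SOCS family dampen the pathway.

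A library outside the 2 groups stood apart and bears on how the comparison was tested. In Adar KO sgRNA #1 cells at 0.4 uM, replicate 2 had a mean log2 level of 10.08 over the 20 ISGs that the study displays, where the other 2 replicates had 1.78 and 3.29. Its Ifit1 was 11.78, against 0.54 and 3.03, and its Ifnb1, the gene of interferon beta, was 6.02, against -2.78 and -2.29. Across genes its Spearman rho with both other replicates was 0.905, while those replicates reached 0.987 with each other. The spread of each gene was estimated over all 33 libraries, and with this library the median residual SD of the 20 ISGs was 1.46. It was 0.50 in the 32 libraries without it and 0.45 in a fit to the 17 NTC libraries alone, whereas over all genes tested it was 0.28, 0.25 and 0.21. Differences between the groups are the same in all 3 fits, and 0.4 against 0 uM was tested in the 33-library fit, in the 32-library fit, which was chosen after seeing the data, and in the NTC-only fit. In the 33-library fit Chil3 alone of the genes tested passed, so a gene said below to have fallen or risen at 0.4 uM in another fit did not pass there. Its ISG mean was above that of every untreated Adar KO library (7.43 to 7.46), and the library nearest to it was Adar KO sgRNA #1 at 0.016 uM, replicate 2 (rho 0.958), so it is not like the treated libraries of its label. Why it stands apart, and whether its label is right, was not tested, and values from the 33-library fit that use its group rest on that label.

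**Figure D1:**
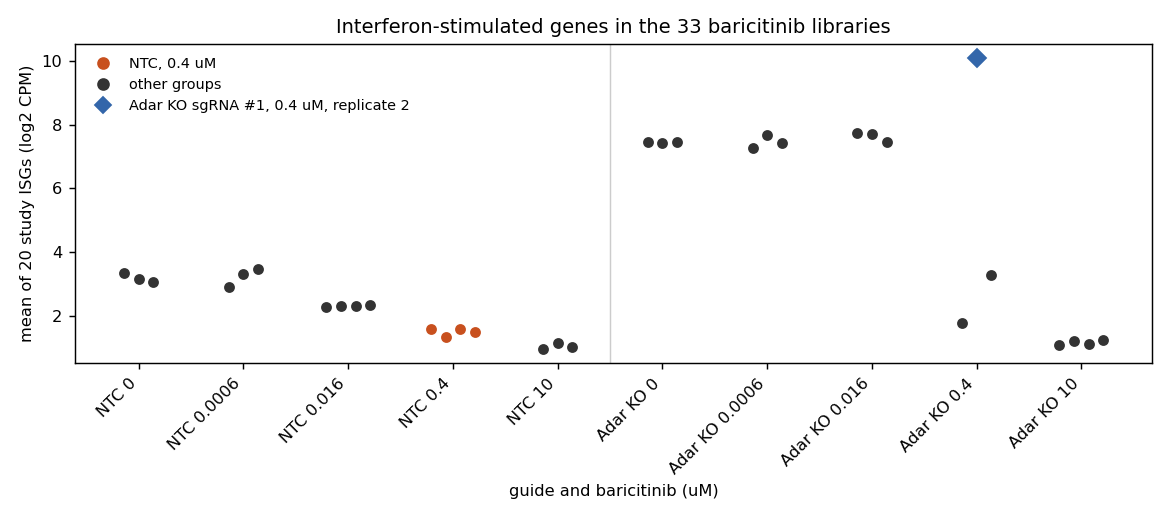
Mean log2 CPM of the 20 study ISGs in each of the 33 baricitinib libraries, by guide and dose; each point is a library and the diamond is the Adar KO sgRNA #1 library at 0.4 uM that stands apart, at 10.08. The NTC libraries lie between 3.06 and 3.35 at 0 uM and between 1.33 and 1.59 at 0.4 uM.

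At 0.4 uM, NTC macrophages had lower levels of Chil3 and of many ISGs than at 0 uM. Chil3, which encodes the secreted chitinase-like protein Ym1 and is induced by STAT6, was 3.79, 3.20 and 3.67 at 0 uM and 1.56, 1.65, 1.33 and 1.99 at 0.4 uM. Every treated library lay below every untreated one, by more than 1 log2 unit. Chil3 fell by 1.92 on the log2 scale (95% interval -2.37 to -1.48 in the 33-library fit), and it is a bulk measure in which fewer cells of a type and less RNA per cell cannot be told apart. Among the ISGs, Oas2, Oas3, Ifi27l2a and Usp18 had mean differences of -4.97, -4.43, -4.04 and -4.03, and they passed the test once the Adar KO library was left out or the NTC libraries were fitted alone.

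In the 33-library fit by limma, 598 of 11152 genes (5.36%) had an unadjusted p under 0.05 and 1 gene (0.00897%), Chil3, passed Benjamini-Hochberg adjustment at 0.05 (adjusted p 2e-05; 1.4e-08 to 0.0175 over 18 alternative settings). For 37 named genes that passed in the NTC-only fit and not in the 33-library fit, the highest adjusted p over the settings was 0.797 or more. No gene passed both that limit and an absolute log2 difference of 2, the fold limit of the study. In the NTC-only fit, 78 genes fell (0.699%) and 23 rose (0.206%), 1413 had an unadjusted p under 0.05, and 17 of the genes that fell and 1 that rose were past the fold limit. In the 32-library fit 58 fell (0.520%) and 12 rose (0.108%), with 17 past the fold limit, all lower, and 995 genes at an unadjusted p under 0.05. The lists of 101 and 70 genes share 56, which is 55.4% of the former and 80% of the latter. The median difference over all genes was -0.01. The count of 101 was 37 without 0 uM replicate 1, 53 without 0 uM replicate 3, 58 without 0.4 uM replicate 2 and 61 without 0.4 uM replicate 3.

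**Figure D2:**
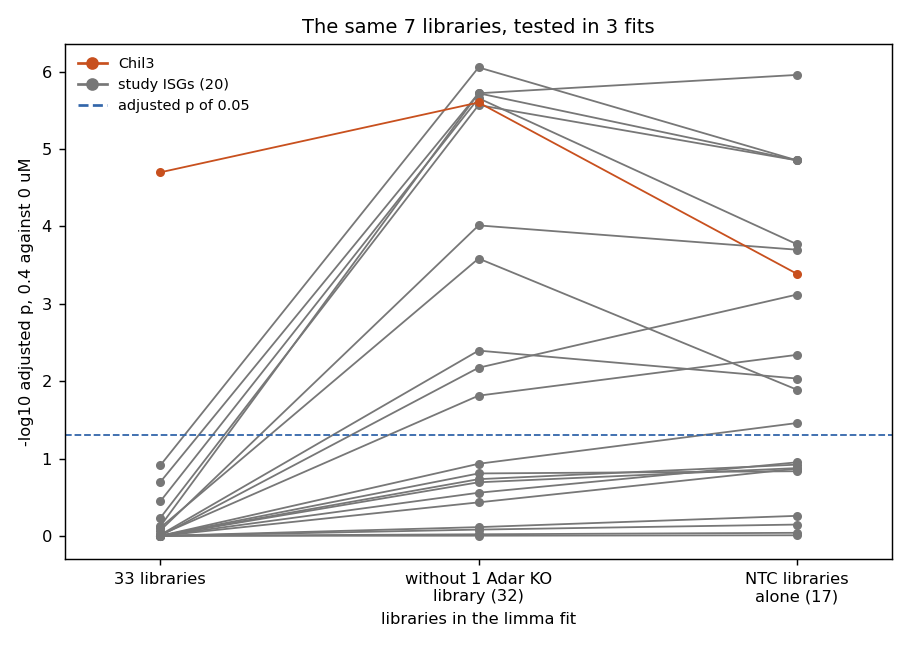
Minus log10 of the adjusted p for 0.4 uM against 0 uM in NTC cells, for Chil3 and the 20 study ISGs, with a point for each of the 3 fits (33, 32 and 17 libraries), lines joining a gene's points and a dashed line at 0.05. Chil3 is past the line in all 3 fits, and the study ISGs pass it only in the fits without the Adar KO library that stands apart (10 genes in 32 libraries, 11 in 17).

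Promoters of 7 genes that fell in the NTC-only fit are given, and 6 of them were picked because they hold the interferon-stimulated response element. They are taken from RefSeq (build GRCm38.p6), each with 250 bases before and 50 after the start, 5′ to 3′ on the gene's own strand. Capitals mark matches to GAAANNGAAA (TTTCNNTTTC on the other strand), the core of that element, or to TTCNNNGAA, the gamma-activated sequence, which reads the same on both strands. Of 27025 promoters, 943 (3.49%) hold the former and 2288 (8.47%) the latter, 139 hold both, and in 21 a match of each overlaps the other. Oas3 (chr5:120777610-120777909, minus strand) and Oas1a (chr5:120907476-120907775, minus) are antiviral synthetases, Ifit3 (chr19:34583279-34583578, plus) and Ddx60 (chr8:61927837-61928136, plus) are antiviral RNA-binding proteins, and Stat2 (chr10:128270248-128270547, plus) is a transcription factor of the pathway. B2m (chr2:122147437-122147736, plus) is the light chain of MHC class I, and Chil3 (chr3:106167515-106167814, minus) is the gene that passed in every fit.
Oas3: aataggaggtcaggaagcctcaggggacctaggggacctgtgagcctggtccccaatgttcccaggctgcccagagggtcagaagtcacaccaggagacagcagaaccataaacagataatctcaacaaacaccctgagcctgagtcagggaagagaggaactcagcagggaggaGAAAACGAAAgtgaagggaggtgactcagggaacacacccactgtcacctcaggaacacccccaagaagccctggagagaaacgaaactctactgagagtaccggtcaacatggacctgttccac
Oas1a: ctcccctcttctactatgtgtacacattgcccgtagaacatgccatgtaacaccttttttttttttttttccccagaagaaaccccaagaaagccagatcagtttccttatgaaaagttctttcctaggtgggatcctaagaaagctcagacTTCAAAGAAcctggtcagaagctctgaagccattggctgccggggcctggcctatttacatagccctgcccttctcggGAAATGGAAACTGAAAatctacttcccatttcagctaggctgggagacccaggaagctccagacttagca
Ifit3: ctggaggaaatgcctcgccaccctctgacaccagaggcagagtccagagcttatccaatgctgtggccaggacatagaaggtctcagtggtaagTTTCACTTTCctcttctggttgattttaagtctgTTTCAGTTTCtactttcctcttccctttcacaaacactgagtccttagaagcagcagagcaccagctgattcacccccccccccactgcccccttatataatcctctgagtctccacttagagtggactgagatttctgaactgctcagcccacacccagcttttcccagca
Ddx60: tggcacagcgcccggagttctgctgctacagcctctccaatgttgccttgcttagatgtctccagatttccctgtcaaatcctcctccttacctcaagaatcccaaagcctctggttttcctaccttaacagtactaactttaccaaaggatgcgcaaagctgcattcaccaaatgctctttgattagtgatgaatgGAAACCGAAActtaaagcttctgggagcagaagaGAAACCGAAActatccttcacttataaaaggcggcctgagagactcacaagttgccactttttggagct
Stat2: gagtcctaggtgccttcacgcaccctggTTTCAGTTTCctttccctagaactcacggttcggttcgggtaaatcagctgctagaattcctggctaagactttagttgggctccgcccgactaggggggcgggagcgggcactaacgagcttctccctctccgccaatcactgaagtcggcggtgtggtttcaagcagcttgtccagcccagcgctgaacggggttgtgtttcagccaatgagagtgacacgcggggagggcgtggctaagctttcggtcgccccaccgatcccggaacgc
B2m: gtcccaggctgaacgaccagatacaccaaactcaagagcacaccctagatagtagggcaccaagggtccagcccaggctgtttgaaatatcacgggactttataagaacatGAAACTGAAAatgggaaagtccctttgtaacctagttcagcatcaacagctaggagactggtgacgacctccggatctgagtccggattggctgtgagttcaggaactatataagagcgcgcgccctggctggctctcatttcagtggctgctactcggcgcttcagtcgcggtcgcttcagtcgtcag
Chil3: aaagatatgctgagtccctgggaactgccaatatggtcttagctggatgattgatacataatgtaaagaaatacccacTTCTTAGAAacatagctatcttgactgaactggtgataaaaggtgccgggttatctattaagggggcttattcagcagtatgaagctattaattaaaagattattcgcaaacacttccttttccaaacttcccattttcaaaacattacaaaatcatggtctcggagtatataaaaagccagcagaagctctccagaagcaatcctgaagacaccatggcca
Oas1a holds overlapping matches of the response element at -20 and -14 and a gamma-activated sequence at -98 (TTCAAAGAA), Ifit3 holds 2 response elements at -156 and -122, and Ddx60 holds 2 at -53 and -19. Chil3 holds no match of the response element and a gamma-activated sequence at -172 (TTCTTAGAA). Of the 78 genes that fell in the NTC-only fit, 55 are in the promoter table, of which 17 hold the response element and 6 the gamma-activated sequence. Irf9, Irf7, Slfn1, Oasl2 and H2-K1, which also fell, hold neither in this window. Of the 23 that rose, 19 are in the table and 0 hold either. A match is a description of letters, not a site of binding, and Oas2, Usp18, Ifi27l2a, Rtp4, Mx2 and Zbp1 are not in the table.

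Of the 20 study ISGs, 18 had a negative difference and 16 had all 4 treated libraries below all 3 untreated ones, where 6.60% of all genes lay so. The median difference was -1.35 (-0.79 with log2(CPM + 1)), against -0.01 over all genes. In the 33-library fit by limma 0 of the 20 passed and 7 had an unadjusted p under 0.05, against 5.36% of all genes. In the NTC-only fit 11 fell and in the 32-library fit 10, against 0.699% and 0.520% of all genes. The list was chosen by the study on samples of this series, so its direction is not independent evidence.

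The 2′-5′ oligoadenylate synthetases, which make the second messenger that activates RNase L after double-stranded RNA is sensed, include 4 of the study's ISGs. Oas2 was 3.85, 2.91 and 2.73 at 0 uM and -1.20, -1.44, -1.80 and -2.78 at 0.4 uM, where 3 of the 4 values are at or below 3 reads. Oas3 was 4.60, 4.36 and 3.99 against 0.83, -1.02, 0.11 and -0.36. Oas1a, printed above with its promoter, was 7.05, 6.86 and 6.81 against 5.27, 5.12, 5.10 and 5.26. In these genes no treated library reached the lowest untreated value, and Oas1g lay likewise at 3.20 to 3.98 and -0.38 to 0.73. Adjusted p by limma in the 33-library, NTC-only and 32-library fits was 0.123, 1.4e-05 and 8.8e-07 for Oas2, 0.202, 1.4e-05 and 1.9e-06 for Oas3, 0.359, 1.7e-04 and 2.2e-06 for Oas1g, and 0.753, 1.1e-06 and 1.9e-06 for Oas1a. Over the 18 alternative settings it ran from 8.8e-07 to 0.797 for Oas2, from 1.9e-06 to 1 for Oas3, from 2.2e-06 to 1 for Oas1g and from 1.1e-06 to 1 for Oas1a, each past the limit in 4. Reads of the near-identical Oas1 genes may be split between them by the counting, so their separate levels are uncertain.

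Usp18, the protease that removes ISG15 from proteins and blocks the interferon receptor, was 4.14, 3.40 and 3.49 at 0 uM and 0.01, 0.13, -0.15 and -1.39 at 0.4 uM. Irf7, which amplifies interferon transcription, was 3.86, 3.07 and 3.15 against 1.38, 0.60, 0.37 and 0.51. Zbp1, a sensor of Z-form nucleic acid, was 3.01, 2.08 and 2.39 against 0.40, -0.99, 0.22 and 1.01. None of the 3 genes had overlapping groups, and all 3 fell in both the NTC-only and 32-library fits, with adjusted p of 1.4e-05 and 2.7e-06 for Usp18, 2.0e-04 and 9.7e-05 for Irf7, and 0.0129 and 2.6e-04 for Zbp1. In the 33-library fit these were 0.588, 0.853 and 0.786. Over the alternative settings they ran from 2.7e-06 to 1, from 9.7e-05 to 1 and from 2.6e-04 to 1.

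Ifit1 and Ifit3, which bind viral RNA, started from lower levels. Ifit1 was 1.83, 2.07 and 1.50 at 0 uM and 0.40, -0.35, -0.51 and -0.70 at 0.4 uM, and Ifit3 was 1.99, 2.33 and 1.98 against -0.46, -0.56, 0.30 and -0.37. Both fell in the NTC-only fit (by 2.09 and 2.37, adjusted p 0.00925 and 0.00457) and in the 32-library fit (0.00403 and 0.0154). Stat2, a transcription factor of the pathway, was 5.24, 4.79 and 4.80 against 4.35, 4.44, 4.41 and 4.34, and fell by 0.56 in the NTC-only fit (0.0348), while the 32-library fit gave 0.117. Over the alternative settings the lowest and highest adjusted p were 0.00403 and 1 for Ifit1, 0.00457 and 1 for Ifit3, and 0.0348 and 1 for Stat2.

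The remaining 9 study ISGs passed in none of the 3 fits. Isg15, the ubiquitin-like modifier, was 2.72, 2.68 and 2.94 at 0 uM and 1.72, 1.61, 1.82 and 2.07 at 0.4 uM, a difference of -0.98 without overlap (adjusted p 1, 0.133 and 0.203 in the 33-library, NTC-only and 32-library fits, and 0.0962 to 1 over the alternative settings). Isg20, Ifih1, Ifit2 and Rsad2 also had no overlap, with differences of -0.93, -0.64, -0.66 and -1.77. The groups did overlap for Herc6 (-0.19), Ifi44 (0.54) and the chemokines Ccl2 (-0.09) and Cxcl10 (0.07). Cxcl10 stood between -2.09 and -0.37 at 0 uM and between -1.86 and -0.70 at 0.4 uM, near the floor in both.

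**Figure D3:**
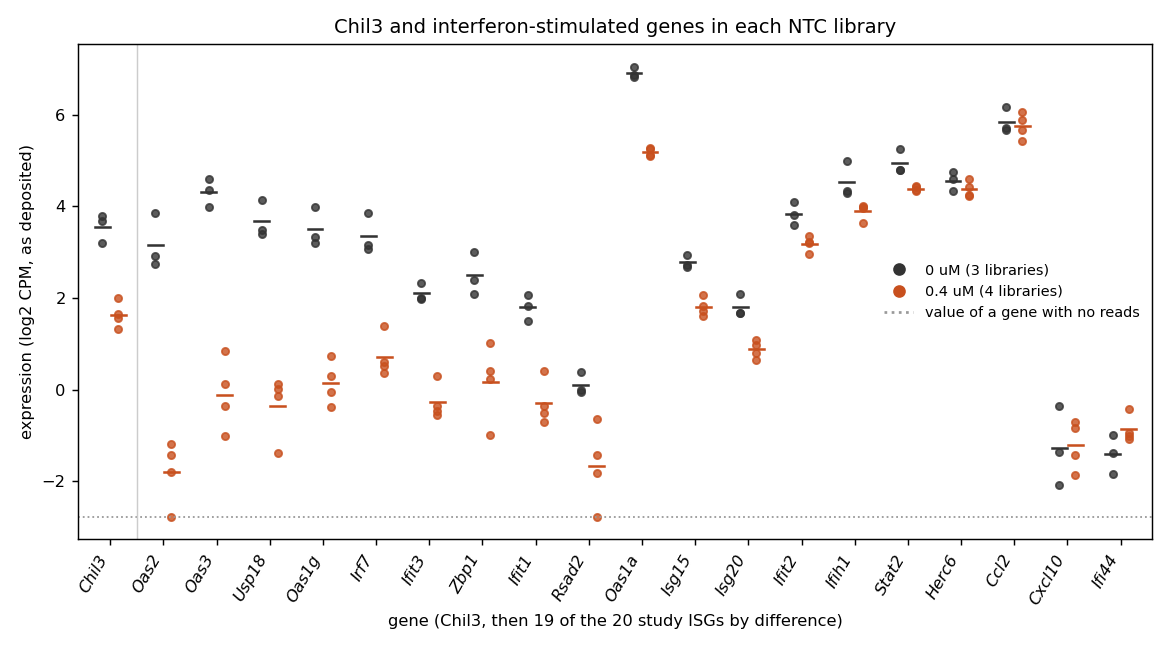
Log2 CPM of Chil3 and 19 of the 20 study ISGs (vertical axis) by gene (horizontal axis), with a point for each of the 3 NTC libraries at 0 uM and the 4 at 0.4 uM and a short line at each group mean. Oas2 spans 2.73 to 3.85 at 0 uM and -2.78 to -1.20 at 0.4 uM, whereas the points of Ccl2, Cxcl10, Herc6 and Ifi44 overlap.

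Beyond the study's list, 73 other type I ISGs were tested of 76 listed. All 4 treated libraries lay below all untreated ones for 41, where 6.60% of all genes lay so, and the opposite for 0. The median difference was -0.59 (-0.50 with the 6 genes that are at the floor at 0.4 uM set to their bounds). Of the 73, 26 fell in the NTC-only fit and 23 in the 32-library fit, against 0.699% and 0.520% of all genes. In the 33-library fit 0 fell and 11 had an unadjusted p under 0.05, against 5.36% of all genes. Ifi27l2a, a mitochondrial interferon-induced protein, was 6.47, 5.99 and 5.62 at 0 uM and 1.70, 1.94, 2.38 and 1.91 at 0.4 uM. Slfn1, of the Schlafen family that restrains lymphocyte growth, was 4.77, 4.14 and 4.14 against 1.19, 1.39, 1.46 and 1.68. Their gaps exceed 2 log2 units in every pair of libraries, and adjusted p in the NTC-only fit was 2.8e-06 and 2.4e-06 (0.0895 and 0.588 in the 33-library fit; 8.8e-07 to 0.797 and 2.4e-06 to 1 over the alternative settings).

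Members with other levels and differences were added after their values were seen. Ly6e, a membrane protein, was 9.25, 8.88 and 8.98 against 8.02, 8.06, 8.10 and 8.08, and Lgals3bp, a secreted galectin ligand, was 7.74, 7.56 and 7.58 against 6.12, 5.93, 6.24 and 6.10. Both fell in the NTC-only fit, by 0.97 and 1.53 (adjusted p 2.9e-06 and 1.8e-06), and in the 32-library fit. Ddx60, printed above with its promoter, was 2.68, 2.95 and 2.15 against 0.84, 0.77, 1.07 and 0.64 and fell by 1.76 in both fits (0.00175 and 0.0154; 0.973 in the 33-library fit). Bst2, which tethers virions to the cell, fell by 0.70 in both fits (0.00211 and 0.00141). Rtp4, a chaperone of receptor transport, was 1.05, 0.79 and -0.04 at 0 uM and -2.78 in all 4 treated libraries, lower by at least 2.01 at a floor of 3 reads per library (bound -2.01), and Mx2, an antiviral GTPase, was lower by at least 1.46 (bound -1.46). Others showed no shift: Ifitm3, which blocks viral entry, was 11.08, 11.22 and 11.17 against 10.99, 11.04, 11.02 and 11.15, and Ifitm2, Slfn9 and Oas1c had differences of 0.03, 0.10 and 0.08 with overlapping groups.

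**Figure D4:**
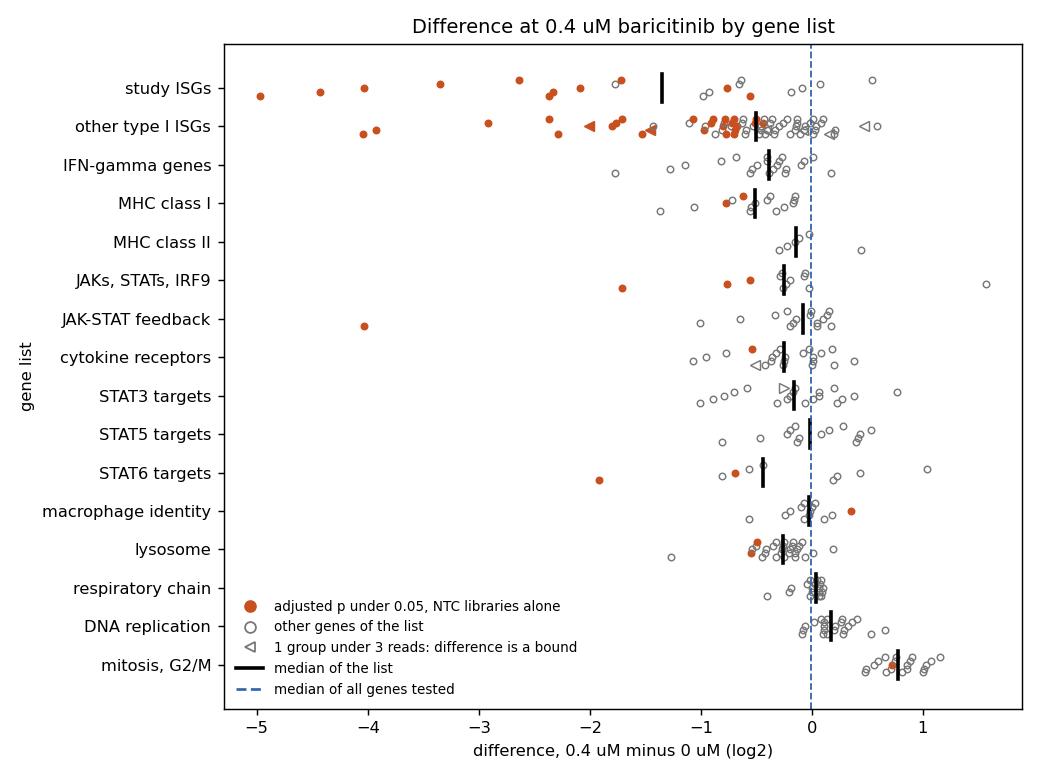
Log2 difference between 0.4 and 0 uM in NTC cells (horizontal axis) for each tested gene of 16 lists (vertical axis); filled points passed in the NTC-only fit, triangles are bounds, black lines are list medians with bounds included and the dashed line is the median of all genes at -0.01. The study ISGs centre on -1.35 and the mitosis genes on 0.78.

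Genes tied mainly to interferon gamma were mostly lower, and their difference from the type I ISGs was not tested. Of 35 listed, 25 were tested and 4 (Gbp4, Gbp5, Gbp11 and Iigp1) were at the floor in both groups; the other 21 had a median of -0.39 and 11 lay below without overlap, where 6.60% of all genes lay so. In the NTC-only fit 0 of 25 passed, 0 had an unadjusted p under 0.05 in the 33-library fit, and in the 32-library fit Gbp6, a guanylate-binding GTPase, fell (-1.77, adjusted p 0.0154). Irf1, the early interferon gamma factor, was 4.88, 4.55 and 4.52 against 4.42, 4.55, 4.54 and 4.17, and the groups overlap. Of 15 genes of MHC class I presentation all had a negative difference (median -0.51), 10 without overlap against the same 6.60%, and 2 fell in both the NTC-only and 32-library fits. H2-K1, a class I heavy chain, was 8.78, 8.23 and 8.22 against 7.73, 7.58, 7.66 and 7.58 (adjusted p 0.00118 in the NTC-only, 1.1e-04 in the 32-library and 0.786 in the 33-library fit), and B2m, printed above with its promoter, was 10.74, 10.55 and 10.68 against 10.04, 9.97, 9.90 and 10.24 (7.6e-04, 0.00141 and 0.885). Reads of class I genes can be shared between near-identical copies. Of 11 class II genes 6 were tested, 5 had a negative difference (median -0.14, or -0.07 with log2(CPM + 1)) and 0 passed in any of the 3 fits by limma, with 1 at an unadjusted p under 0.05 in the 33-library fit. Cd74, the invariant chain, was the 1 with a positive difference and was higher without overlap, at 5.56 to 5.89 and 6.13 to 6.37 (difference 0.44).

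The list of 12 pathway components holds kinases, STATs and Irf9. Irf9, the DNA-binding partner of STAT2, was 6.28, 6.17 and 6.27 at 0 uM and 4.52, 4.52, 4.42 and 4.66 at 0.4 uM. The groups are 1.5 log2 units apart or more, with replicates within 0.24 of each other. Irf9 fell by 1.71 (adjusted p 5.9e-07 in the NTC-only fit, 4.7e-06 in the 32-library fit and 0.144 in the 33-library fit), and Stat2 also fell in the NTC-only fit. The targets of the drug, Jak1 (6.59 to 7.40 against 6.40 to 7.09) and Jak2 (2.92 to 3.39 against 2.96 to 3.43), had overlapping groups, as did Stat3, Stat4, Stat5a, Stat5b and Stat6. Tyk2 was at -2.78, -0.32 and -2.78 at 0 uM and at 3.62, -2.74, -2.78 and 0.35 at 0.4 uM, a spread within groups that leaves its difference undetermined.

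Of 16 tested feedback inhibitors, Usp18 fell in the NTC-only and 32-library fits, and the other 15 passed in none of the 3 fits; the median was -0.08 (-0.03 with log2(CPM + 1)). Socs3, which blocks receptor-bound JAKs, was 1.20, -0.72 and -0.98 against -2.23, -1.64, 0.07 and -0.91, and Socs2 stood below 0 in all 7 libraries. Of 31 receptor genes 22 were tested and Csf3r, the G-CSF receptor, fell in the NTC-only fit (6.42, 5.90 and 6.18 against 5.70, 5.53, 5.64 and 5.62, adjusted p 0.0319; 0.12 in the 32-library fit), and it is also a neutrophil marker. Ifnar1, a chain of the type I interferon receptor, was 7.82, 7.64 and 7.60 against 7.71, 7.59, 7.91 and 7.57. Of 21 ligands 5 were tested. Ebi3, a cytokine subunit, fell in the NTC-only fit (6.81, 6.55 and 6.64 against 6.31, 6.24, 6.36 and 6.22, adjusted p 0.0278; 0.086 in the 32-library fit), and Ifnb1 was listed at -2.78 in all 7 libraries, so this type I interferon was not detectable at this depth.

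Genes induced through STAT6, STAT3 and STAT5 had medians of -0.44, -0.10 and -0.02, and the difference between these lists was not tested. Of 9 tested targets of STAT6 (17 listed) 5 lay below without overlap. Beside Chil3, Mgl2, a galactose-binding lectin of alternatively activated macrophages, was 5.66, 5.59 and 5.84 against 5.00, 4.80, 5.05 and 5.17 and fell by 0.69 in the NTC-only fit (adjusted p 0.00935; 0.588 and 0.157 in the 33- and 32-library fits). Clec10a (-0.44), Mrc1 (-0.57) and Tgm2 (-0.81) were lower without overlap and passed in none of the 3 fits. For 20 STAT3 targets the median was -0.10 (-0.16 with 1 gene at its bound) and for 14 STAT5 targets -0.02 (0.01 with log2(CPM + 1)), and none of these passed in any of the 3 fits by limma, with 1 and 0 at an unadjusted p under 0.05 in the 33-library fit. Myc, a STAT5 target, was 5.40, 5.56 and 5.53 against 5.61, 5.54, 5.65 and 5.49.

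Adar, which encodes the RNA editor ADAR1 and is itself interferon-inducible, was 5.12, 4.94 and 4.69 at 0 uM and 4.50, 4.22, 4.29 and 3.92 at 0.4 uM. The treated values are all lower, by 0.69 on average, and Adar fell in the NTC-only fit (adjusted p 0.047), while the 33- and 32-library fits gave 0.979 and 0.251. Of 14 tested genes of editing and nucleic acid sensing, Zbp1 and Irf7 fell with it in the NTC-only fit and the median was -0.12. The groups overlapped for Mavs, the adaptor of RNA sensors (6.43 to 6.54 and 6.38 to 6.55), for the kinase Tbk1 (6.85 to 6.93 and 6.79 to 6.98) and for the transcription factor Irf3 (4.07 to 4.65 and 3.96 to 4.94).

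Macrophage identity genes stayed close to their 0 uM levels. Of 13 tested, the median was -0.03, and Cx3cr1, the fractalkine receptor, rose in the NTC-only fit (10.04, 10.28 and 10.04 against 10.46, 10.45, 10.50 and 10.46, a difference of 0.35, adjusted p 0.041; 0.62 in the 32-library fit). Emr1 and Mertk lay below without overlap (-0.24 and -0.57) and passed in none of the 3 fits. Of 11 tested monocyte genes, F13a1, the transglutaminase of clotting, was 9.72, 10.07 and 9.97 against 10.30, 10.47, 10.55 and 10.40 and rose in the NTC-only fit (0.51, adjusted p 0.0115; 0.248 in the 32-library fit), and Ccr2 differed by 0.07.

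Markers of other cell types were low in both groups, and their part in the differences was not tested. The 12 neutrophil markers summed to 198, 150 and 166 CPM at 0 uM and 125, 109, 114 and 155 at 0.4 uM, led by S100a8, with 5 at or below the floor in all 7 libraries (S100a9, Ly6g, Ngp, Retnlg and Ltf, of which the former 4 were listed without a read). Of the 7 neutrophil markers tested 6 had a negative difference (median -0.46, or -0.39 at bounds), and Csf3r fell in the NTC-only fit. The 14 progenitor markers summed to 29.8, 19.4 and 19.9 against 18.8, 22.2, 22.7 and 15.3, led by Spi1, which macrophages also express, and Elane, Ctsg and Gata2 had no read. The 12 dendritic markers summed to 13.9, 14.8 and 13.5 against 12.5, 7.95, 10.7 and 14.8, led by Itgax, with Cd209a, Clec9a, Ccr7 and Dpp4 at 0. The 12 lymphocyte markers summed to 16.5, 12.6 and 18.8 against 9.05, 4.57, 7.52 and 10.4, led by Il7r, with Trbc1, Ncr1, Klra8, Nkg7 and Gzma among the 6 at 0. The 12 mast cell, basophil and eosinophil markers summed to under 1 CPM in every library (0.446, 0.566 and 0.531 against 0.514, 0.776, 0.858 and 0.476, led by Siglecf), with Tpsb2, Mcpt8, Prss34, Fcer1a and Il5ra among the 6 at 0. Hoxb8 was 0.87, 0.08 and 1.09 against 1.36, -0.10, 0.32 and -1.14, with overlap.

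The 11 osteoclast genes summed to 142, 126 and 143 CPM at 0 uM and 108, 98.6, 103 and 117 at 0.4 uM, with Nfatc1 the most abundant over all 7 libraries and Atp6v0d2 above it in each 0 uM library, and with Calcr at 0 and Acp5 at or below the floor. Atp6v0d2, a subunit of the vacuolar proton pump, was 5.70, 5.56 and 6.10 against 4.65, 4.41, 4.49 and 4.85 and fell by 1.18 in the NTC-only fit (adjusted p 0.00485; 0.163 in the 32-library fit). Tnfrsf11a, the receptor RANK, was 4.46, 4.57 and 4.41 against 4.79, 5.12, 5.02 and 4.95 and rose by 0.49 in the NTC-only fit (0.0319; 0.377 in the 32-library fit). Ctsk, a collagen-degrading protease, was lower without overlap (2.32 to 2.89 and 1.24 to 2.16) and passed in none of the 3 fits.

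Of 28 lysosomal genes 26 had a negative difference (5803 of all genes did, and 5315 had a positive one), with a median of -0.26, and 10 lay below without overlap, where 6.60% of all genes lay so. Psap, the saposin precursor, was 12.93, 12.68 and 12.83 against 12.39, 12.13, 12.23 and 12.29, and Npc2, a cholesterol carrier, was 10.60, 10.46 and 10.65 against 10.14, 10.05, 10.00 and 10.17. Both fell in the NTC-only fit, by 0.55 and 0.49 (adjusted p 0.0124 and 0.00117), and Npc2 also in the 32-library fit (0.0163). Gpnmb, a lysosomal glycoprotein, was 12.37, 11.83 and 12.46 against 11.16, 10.60, 10.61 and 11.45, lower without overlap, with adjusted p 0.0807 in the NTC-only fit. Of 12 genes of LXR and cholesterol efflux (median -0.15), Abcg1, a sterol exporter, fell in both fits (6.86, 6.58 and 6.87 against 6.02, 6.31, 6.09 and 6.19, adjusted p 0.0292 and 0.047).

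Lists with medians near that of all genes were sterol synthesis (19 genes, 0.03), chemokines (15, 0.03), inflammatory cytokines (15, 0.02, or -0.00 at bounds and 0.10 after quantile normalization), the respiratory chain (18, 0.04), p53 targets (14, 0.08), the integrated stress response (16, 0.08) and scavenger and phagocytic genes (16, -0.02, or 0.01 after quantile normalization). The 15 NRF2 targets and 15 immediate early genes had medians of -0.27 (-0.10 after quantile normalization) and -0.20. None of these genes passed in any of the 3 fits by limma. In the 33-library fit an unadjusted p under 0.05 was found for 2 chemokines, 4 NRF2 targets, 1 immediate early gene, 7 scavenger genes and 0 genes of the other 5 lists. Over all genes 5.36% had such a p. Pf4, a platelet-type chemokine, was -0.50, -0.44 and -0.38 against 0.85, 1.88, 1.03 and 0.42, and C1qb, a chain of complement C1q, was -0.70, -1.07 and -1.90 against 0.32, 1.85, 0.57 and 0.02, both higher without overlap. C1qb in 0 uM replicate 3 was under the floor of that library (-1.60). The groups overlapped for the other C1q chains, C1qa (-0.40 to 0.88 and 0.57 to 2.34) and C1qc (1.63 to 3.01 and 0.66 to 3.84). Without overlap, 3 NRF2 targets and 5 immediate early genes lay below and 0 of either list lay above. Of the stress response genes 3 lay above and 4 below without overlap, where 5.40% and 6.60% of all genes lay so. Of the scavenger and phagocytic genes, which include C1qb, 4 lay above and 6 below without overlap, so both medians near 0 cover members that went both ways. Fcgr4, an Fc receptor, was 3.01, 2.88 and 2.83 against 1.48, 2.27, 1.93 and 2.31, and Axl, a receptor for apoptotic cells, was 4.67, 4.07 and 4.06 against 3.79, 2.89, 3.47 and 2.82.

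Mitosis genes were higher at 0.4 uM. All 20 had a positive difference (median 0.78), and 17 had all 4 treated libraries above all untreated ones, where 5.40% of all genes lay so. In the 33-library fit by limma 11 had an unadjusted p under 0.05, against 5.36% of all genes. Mki67, the proliferation antigen, was 6.44, 6.88 and 6.57 against 7.13, 7.54, 7.49 and 7.23 and rose in the NTC-only fit (0.72, adjusted p 0.0451; 0.0875 in the 32-library fit). In the 32-library fit 4 others rose: Ccnb1 and Cdk1, the cyclin and kinase that drive mitotic entry, Cdc20, which activates the anaphase complex, and Cenpa, the centromeric histone (differences 0.88, 0.66, 1.07 and 1.00, adjusted p 0.0396, 0.0382, 0.016 and 0.0488). These 4 did not pass in the NTC-only fit, where Mki67 alone of the 20 rose. Over all genes 0.206% rose in the NTC-only fit and 0.108% in the 32-library fit. Cdc20 was 4.13, 4.56 and 4.64 against 5.36, 5.85, 5.79 and 5.05. Among 22 DNA replication genes the median was 0.17, 3 lay above without overlap and 0 passed in any of the 3 fits by limma, with 0 at an unadjusted p under 0.05 in the 33-library fit. Pcna was 8.02, 8.39 and 8.33 against 8.40, 8.43, 8.38 and 8.62.

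The genes that rose in the NTC-only fit with the widest differences have varied roles. Cux2, a homeobox transcription factor, had the widest at 2.40 (adjusted p 0.0342), and passed neither in the 32-library fit (0.179) nor in the 33-library fit. Cetn4, a centrin, was 1.27, 1.57 and 1.96 against 2.66, 3.00, 2.89 and 2.18 (difference 1.08, adjusted p 0.0391, and 0.423 in the 32-library fit), and it passed in 1 of 18 alternative settings. Aspm, a spindle pole protein, was 2.69, 3.76 and 3.27 against 4.23, 4.93, 4.89 and 4.36. Maf, a transcription factor of tissue macrophages, was 3.34, 3.46 and 3.11 against 4.19, 4.56, 4.47 and 4.05, and Rnase4, a secreted ribonuclease, was 5.25, 5.61 and 5.35 against 6.18, 6.62, 6.57 and 6.14. No library of either dose crossed into the other group in these genes, and Aspm, Maf and Rnase4 rose in both the NTC-only fit (1.36, 1.01 and 0.97, adjusted p 0.0347, 0.0413 and 0.023) and the 32-library fit (0.0357, 0.0166 and 0.0165). Over the alternative settings adjusted p ran from 0.0097 to 1, from 9.9e-04 to 0.797 and from 7.9e-04 to 1.

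The other doses place 0.4 uM within the series. Chil3 averaged 3.56 at 0 uM, 3.21 at 0.0006 uM, 2.41 at 0.016 uM, 1.63 at 0.4 uM and 1.21 at 10 uM. Oas2 averaged 3.16, 3.52, 1.06 and -1.80 over the doses up to 0.4 uM and was listed at -2.78 in every library at 10 uM, and Irf9 averaged 6.24, 6.19, 5.59, 4.53 and 4.14. The mean of the 20 study ISGs lay at 3.06 to 3.35 at 0 uM, 2.91 to 3.45 at 0.0006 uM, 2.26 to 2.33 at 0.016 uM, 1.33 to 1.59 at 0.4 uM and 0.96 to 1.15 at 10 uM, so that groups from 0.016 uM up do not overlap with each other or with 0 uM, and the lowest dose overlaps with 0 uM.

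The mitosis genes had another order. Their mean was 5.27, 5.85 and 5.59 in the 0 uM libraries, 6.00 to 6.63 at 0.0006 uM, 6.17 to 6.67 at 0.016 uM, 6.03 to 6.61 at 0.4 uM and 6.52 to 7.45 at 10 uM. The 0 uM libraries lay below every library with drug, the lowest dose included, and the 3 middle doses overlap. Mki67 averaged 6.63, 7.31, 7.39, 7.35 and 8.07, and Maf 3.30, 3.92, 3.87, 4.32 and 4.36. Cux2 had its highest average in the middle of the series (-0.91, 0.30, 2.04, 1.48 and -1.05).

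**Figure D5:**
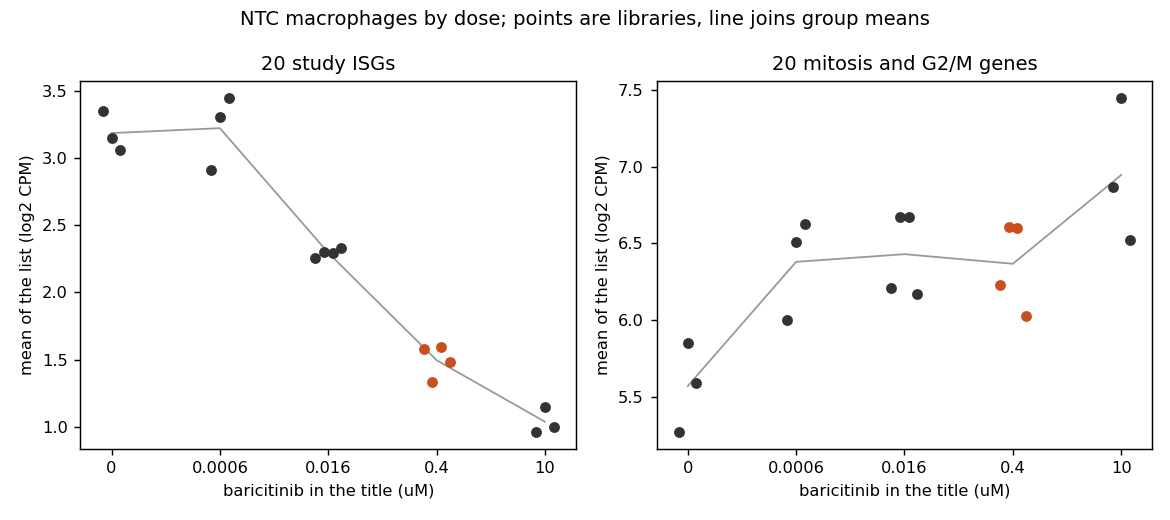
Mean log2 CPM of the 20 study ISGs and of the 20 mitosis genes in each NTC library (points, 0.4 uM in orange; the line joins group means) by baricitinib dose in uM as titled. The ISG mean goes from 3.06 to 3.35 at 0 uM to 0.96 to 1.15 at 10 uM, and the mitosis mean is at 5.27 to 5.85 at 0 uM and at 6.00 or more at every other dose.

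The direct contrast of 10 uM with 0.4 uM shares the 0.4 uM libraries and asks what the higher dose adds. In NTC cells 303 genes fell (2.72%) and 91 rose (0.816%) from 0.4 to 10 uM in the 33-library fit, 24 of them past the fold limit (19 lower and 5 higher). Plp2, a membrane proteolipid, fell by 4.51 (adjusted p 2.9e-17), and Anpep, aminopeptidase N, Efr3b, Man2a2 and Atp6v0d2 fell by 2.98, 2.96, 2.81 and 2.75. C1qb and C1qa rose by 2.98 and 2.37 (adjusted p 0.00135 and 0.00573), with Cep78, P2ry13 and Cdhr3 (2.88, 2.24 and 2.05). Atp6v0d2 and Mgl2 averaged 4.60 and 5.01 at 0.4 uM and 1.86 and 3.54 at 10 uM, wider steps than from 0 to 0.4 uM, and Csf3r fell further by 1.56 (1.0e-04).

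Of the 20 study ISGs 0 passed from 0.4 to 10 uM in the 33-library fit (median -0.39, against 0.01 over all genes) and 3 fell in the NTC-only fit, and Chil3 differed by -0.42 (adjusted p 0.295). The mitosis genes had a median of 0.59, with 0 and 5 higher in those fits, the DNA replication genes 0.43 with 0 and 15 higher, and the lysosomal genes -0.24 with 3 and 12 lower. Over all 11152 genes, 1043 fell and 727 rose in the NTC-only fit. The count of 394 genes was 953 in the 32-library fit and 1770 in the NTC-only fit. It was 146 without 10 uM replicate 1, 171 without 10 uM replicate 2, 251 without 10 uM replicate 3, 164 without 0.4 uM replicate 1 and 257 without 0.4 uM replicate 4.

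Whether the response at 0.4 uM differs between NTC and Adar KO sgRNA #1 cells was tested as the difference of the 2 differences. With all 33 libraries 531 of 11152 genes passed (4.76%), 359 higher and 172 lower in the Adar KO cells, and 0 of the 20 study ISGs were among them by limma. Without the library that stands apart, which leaves 2 Adar KO libraries at 0.4 uM, 1523 genes passed (13.7%) and 17 of the 20 study ISGs were lower, that is, with the larger fall in Adar KO cells. Their mean log2 level was 7.43 to 7.46 in the untreated Adar KO libraries and 1.78 and 3.29 in those 2 libraries, against 3.06 to 3.35 and 1.33 to 1.59 in NTC cells. The count of 531 was 279 without Adar KO 0 uM replicate 1, 313 without NTC 0 uM replicate 2 and 347 without NTC 0 uM replicate 3.

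Genes of the NTC response differed in whether they passed this test. Irf7 had a difference of -1.47 with all 33 libraries (adjusted p 0.669) and -4.31 without the library that stands apart (6.2e-06). Irf9 and Ifi27l2a, which fell in NTC cells by 1.71 and 4.04, passed in neither (0.60 and 1.45 with adjusted p 0.611 and 0.546, and -0.32 and -0.53 with 0.569 and 0.637). Chil3 had -0.80 and -0.93 (0.152 and 0.0614), while it stood at 7.32, 7.34 and 7.49 in untreated Adar KO cells against 3.79, 3.20 and 3.67 in NTC cells. F13a1 passed in both, with 2.04 and 2.42 (1.8e-04 and 2.8e-07). Of the 20 mitosis genes 0 passed with all 33 libraries and 17 were higher without the library that stands apart (medians 0.81 and 1.61).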

How the data were processed

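The authors deposited log2 CPM after TMM normalization with a prior count, and the submitters' processing notes name FastQC, kallisto 0.46.0, MultiQC, edgeR, limma and GRCm39. All 92 columns were mapped to samples by library name. The smallest step of each column and its lowest value of -2.78 gave a prior count of 2 and the depth, 10.6 to 16.3 M reads in the 7 libraries (median 14.2), with a floor of 3 reads. The table holds 29956 named genes, and 1 entry with no gene name was left out (0.0082 to 0.0099% of CPM in the 7 libraries).

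Tests used limma 3.58.1 in R 4.3.3 on the deposited values, with a mean per group, a trended prior variance and Benjamini-Hochberg adjustment over the 11152 genes with more than 1 CPM in at least 3 of the 33 baricitinib libraries. Changed means an adjusted p under 0.05, and the fold limit is an absolute log2 difference of 2. The fit was tested on simulated data. Promoters were searched with Python 3.11.15, and matplotlib 3.10.9 drew the figures.

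Named genes are members of the gene lists, mainly those with the lowest adjusted p, and the 10 changed genes with the widest difference in each direction whose 4 treated libraries all lay on 1 side of the 0 uM libraries, with the 5 widest each way for 10 against 0.4 uM and for the interaction. As 1 gene passed in the 33-library fit, the second part of this rule was applied to the NTC-only fit after the data were seen. Other list members, such as Adar, Ly6e, Lgals3bp, Bst2, Mx2, Ifitm3, Npc2, Irf1, Tyk2, Jak2, Myc, Ccnb1, Ifnar1, Mavs and Tbk1, were added as examples after their values were seen. The members, lists and rules were chosen with earlier results of these data known. Alternatives changed the genes tested, offset, normalization, variance model, weights, replicate block and libraries.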

Additional observations from a re-analysis of the deposited data

Results flagged for a closer look

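In 10 of the 159 named genes (6.29%), 1 of the 4 NTC libraries at 0.4 uM lay far from the other 3 by Dixon's test, as in 729 of the 11152 genes tested (6.54%), where chance gives about 1 in 20. In replicate 1, Ifih1 was low at 3.63 (others 3.97, 3.98 and 4.00), Cox7a2 low at 6.99 (7.26, 7.28 and 7.29), Zbtb46 high at 0.67 (-0.13, -0.11 and -0.01) and Camp high at -1.82 (all -2.78), a value under the floor of 3 reads (-1.50 in that library) beside libraries without a read, which does not show a library apart. In replicate 2, Gbp6 was low at -1.46 (-0.79, -0.76 and -0.70), Egr2 low at 0.64 (1.54, 1.71 and 1.71) and Zmat3 high at 4.65 (4.40, 4.42 and 4.45). In replicate 3, Ptpn6 was high at 9.00 (8.81, 8.83 and 8.84). In replicate 4, Sh2b3 was low at 4.52 (4.75, 4.76 and 4.78) and Cebpe low at -0.89 (0.72, 0.79 and 1.03).

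The response to 0.4 uM differed between Adar KO sgRNA #1 and NTC cells for 531 genes by limma in the 33-library fit. The genes with the widest positive differences of log2 differences were Espl1 (5.64), Ccdc109b (4.13), Cep78 (4.08), Ttll3 (3.95) and Acy1 (3.80), and those with the widest negative ones were Mgll (-4.26), Enpp2 (-4.14), Slamf7 (-3.75), Inhba (-3.56) and Tgm2 (-3.36). Without the Adar KO library that stands apart they were 5.69, 4.37, 3.99, 3.72 and 3.97, and -4.18, -4.05, -5.55, -4.60 and -4.03. Ccdc109b, a subunit of the mitochondrial calcium uniporter, averaged 5.01 and 5.18 at 0 and 0.4 uM in NTC cells and 0.45 and 4.76 in Adar KO cells. Mgll, monoacylglycerol lipase, averaged 2.67 and 2.20 in NTC cells and 5.29 and 0.56 in Adar KO cells.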

How the results depend on the processing

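For 0.4 against 0 uM, the count of 1 changed gene was 4 with no filter, 37 with the contrast's groups alone, 101 with NTC libraries alone, 3 with quantile normalization, 230 with library weights, 3 with the title number as replicate block, 6 with the library-number block and 70 without the library that stands apart (weight 0.0776); leaving out 1 of the 7 gave 1 to 2, the higher without 0 uM replicate 3. Genes past the fold limit, 0 by limma in the 33-library fit, were 13 (contrast's groups), 18 (NTC), 1 (quantile), 20 (weights), 1 and 2 (blocks), 17 (32 libraries), 0 to 1 (leave-one-out, 1 without 0 uM replicate 2 or 0.4 uM replicate 4) and 1 at a limit of 1. Study ISGs, 0 of 20 (7 at an unadjusted p under 0.05), were 8 (contrast's groups), 11 (NTC), 9 (weights) and 10 (32 libraries), and 0 in each leave-one-out fit. For 10 against 0.4 uM, 394 became 1143, 1770, 2365 and 953 (contrast's groups, NTC, weights, 32 libraries) and 146 to 357 by leave-one-out. The interaction's 531 became 235, 3118 and 1523 (contrast's groups, weights, 32 libraries) and 279 to 1523, the highest without Adar KO 0.4 uM replicate 2. The NTC-only 101 became 246 with weights, 335 with the title block and 276 with the library-number block, and ran from 37 (without 0 uM replicate 1) to 136 by leave-one-out, with 8 to 11 study ISGs. Among the 7 libraries, residuals of pairs that share a number had r of -0.20 to 0.05, and other pairs had -0.22 to 0.23. These pairs are too few to decide whether the numbers mark replicate pairs, and the blocks did change the NTC-only count. Over 159 named genes and 18 settings, 0 called values changed sign, and 16 of the genes changed sign in a setting where they were not called. Settings that change only the genes tested, the variance model or the libraries of other groups cannot change a sign. Which choice is better was not tested.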

Other observations

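Some genes varied between libraries more than between doses, and they were chosen after their values were seen. Ifnar2, the other chain of the type I interferon receptor, was 7.00, 4.34 and 5.06 at 0 uM and 4.98, 6.28, 5.04 and 4.29 at 0.4 uM. Junb was 6.12, 3.19 and 3.96 against 3.44, 4.74, 3.74 and 2.98, and Cox5a, a subunit of cytochrome c oxidase, was 6.40, 3.45 and 4.15 against 4.08, 5.97, 4.50 and 3.26. Cyc1 was 5.88, 3.20 and 3.76 against 3.71, 5.25, 3.81 and 2.76. In these 4 genes 0 uM replicate 1 and 0.4 uM replicate 2 were the highest of their groups. These libraries have the lowest depths of the 7, 10.6 and 11.3 M reads. The next lowest, 0.4 uM replicate 4 at 12.7 M, was the lowest of its group in all 4 genes. Whether depth is tied to these levels was not tested.

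Akap13, an anchoring protein of kinase A, had the widest positive difference of all genes tested, 5.39, at -2.60, -2.31 and 3.96 against 4.95, 4.54, 5.40 and 5.40. A single untreated library is close to the treated ones, and the gene passed in none of the 3 fits (adjusted p 0.195 in the NTC-only fit).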
